A study of Mus musculus with 56 samples.

Results

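The endoplasmic reticulum (ER) chaperone genes Hspa5, Hsp90b1, Hyou1, Calr, Pdia4, Dnajb9, Sdf2l1, Manf, Creld2 and Herpud1 were followed across 56 mouse livers from 7 groups of 8, together with Xbp1 and Atf6. The 10 genes were picked by symbol from a table of read counts on 21935 genes, and all 10 were among the 14105 genes that reached 5 reads in at least 3 livers. In chow-fed mice, Herpud1 was expressed at 749 ± 150 CPM (reads scaled to library size) against 331 ± 68.0 in DIO-MASH vehicle mice (mean ± SD, n = 8 each). Hspa5, Hsp90b1, Hyou1 and Dnajb9 were also higher in chow, by 1.37 to 1.66 times relative to the bulk of liver genes, but of these 5 genes Herpud1 alone kept its call when scaled to total reads, and Hsp90b1 changed sign. The other 5 members were not called, and of all genes 55.4% were called in that comparison. In the combination of zalfermin and semaglutide Hspa5 alone was called, as higher, beside 20.9% of all genes called in either direction. That count was unstable, with 0 to 4 members called when 1 mouse was left out, 3 by DESeq2 and 0 with total reads. The count of 1 recurred in 11 of the 56 fits without 1 mouse. Within groups, 34 of the 36 pairs of members without Herpud1 were correlated from mouse to mouse, against 1 of the 9 pairs with it. Without the 2 farthest mice these counts were 34 and 6. The share of correlated pairs among other genes was not computed.

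Chaperones of the ER bind newly made secretory and membrane proteins, help them fold and add disulphide bonds, and hand those that fail to a degradation pathway that returns them to the cytosol. When unfolded protein accumulates, 3 sensors (IRE1, PERK and ATF6) switch on the unfolded protein response. ATF6 and the spliced form of XBP1 are the transcription factors best known for inducing ER chaperone genes. The hepatocyte secretes most plasma proteins and so carries a large ER. Splicing of Xbp1 mRNA and cleavage of ATF6 protein cannot be read from counts per gene.

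All mice were male C57BL/6J. Chow vehicle mice were fed chow throughout. The other 6 groups were fed the AMLN diet (high in trans-fat, fructose and cholesterol) for many months before dosing. The study describes intake of this diet during dosing too. Steatohepatitis and fibrosis were seen in a liver biopsy before dosing. These 6 groups are diet-induced obese (DIO) mice with metabolic dysfunction-associated steatohepatitis (MASH). Dosing was subcutaneous and daily for 8 weeks with vehicle (DIO-MASH vehicle), zalfermin, an analogue of the hormone FGF21, at 0.05 mg/kg (low) or 0.2 mg/kg (high), or semaglutide, a GLP-1 receptor agonist, at 3 µg/kg (low) or 120 µg/kg (high). The combination group received zalfermin and semaglutide, at both low doses per the study's methods, although the series' design text calls the doses of that group high and the sample labels give none. Mice entered the study only with a set minimum of steatosis and fibrosis, so milder disease was not represented, and each sample was a piece of 1 mouse's liver. Mice are numbered 1 to 8 within a group only to name them.

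Reads on genes ranged from 5228187 to 20885786 per mouse with a median of 12206788. The lowest count of any member in a mouse was 42 reads, for Sdf2l1 in a chow-fed mouse. One low-dose semaglutide sample had been excluded by the authors and is not marked in the table. Mouse 6 of that group stood apart, and the results that turn on it are also given without it. Whether mouse 6 was the excluded sample is not known, and mouse 8 of the group lay low for the members. CPM here were scaled with TMM factors, which centre the fold changes of most genes on 0. Scaling to total reads instead lowered the median log2 fold change of all genes by 0.46 in chow against DIO-MASH vehicle and by 0.22 in the combination against DIO-MASH vehicle. The labelled tissue was checked on markers. The summed CPM of 8 hepatocyte markers ran from 59889 to 234523 over all mice and none was at 0, while 4 to 6 of 9 pancreatic acinar markers, genes of the most chaperone-rich tissue nearby, were at 0 in every mouse of a group and their sum was at most 22.8 CPM.

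Promoter windows of RefSeq (GRCm38.p6, 250 bases before to 50 after the start site) were given for 8 of the members, all but Hyou1 and Manf, and for Xbp1 but not Atf6. Stretches are shown for the 5 members whose window held the ER stress response element (ERSE), a site known for binding ATF6 and XBP1 with NF-Y, since the comparisons below set these genes against Atf6 and Xbp1. The ERSE was searched as CCAAT, 9 bases of any kind, then CCACG, and its type II form as ATTGG, 1 base of any kind, then CCACG, both on either strand. Capitals mark the match, and a match written from CGTGG to ATTGG lies on the opposite strand.

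Hspa5, chr2:34772000-34772068, plus strand: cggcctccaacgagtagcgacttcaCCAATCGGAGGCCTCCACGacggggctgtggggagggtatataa
Hsp90b1, chr10:86705508-86705681, minus strand: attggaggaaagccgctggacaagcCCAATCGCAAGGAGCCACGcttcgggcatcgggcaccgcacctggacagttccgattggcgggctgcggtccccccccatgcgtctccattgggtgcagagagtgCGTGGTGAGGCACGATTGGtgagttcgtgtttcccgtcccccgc
Calr, chr8:84847050-84847118, minus strand: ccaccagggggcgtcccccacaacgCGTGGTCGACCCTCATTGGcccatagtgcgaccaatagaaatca
Creld2, chr15:88819495-88819563, plus strand: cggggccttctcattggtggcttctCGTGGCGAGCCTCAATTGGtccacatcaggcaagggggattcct
Herpud1, chr8:94386352-94386412, plus strand: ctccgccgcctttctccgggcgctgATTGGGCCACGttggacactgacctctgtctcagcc

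The ERSE lay 65 to 47 bases before the start site of Hspa5 and 162 to 144 before that of Calr. Hsp90b1 held 2 of them, Creld2 held 1, and Herpud1 was the sole member with the type II form, 52 to 42 bases before its start. Among all 32851 windows of 300 bases, 0.119% held an ERSE and 0.0365% the type II form. Pdia4, Dnajb9, Sdf2l1 and Xbp1 had neither in their window, and the unfolded protein response element (UPRE), another site known for ATF6 and XBP1, was in none of the 9 windows against 0.676% of all windows. These matches describe sequence only.

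Levels between genes were compared per kilobase of exon. Exon length was the union of all annotated exons of a gene, such as 3524 bases for Manf and 7230 for Hyou1. That union can exceed the length of the transcript expressed, which lowers the value, so the order of genes is approximate. In DIO-MASH vehicle mice Calr was highest at 238 ± 39.02 CPM per kb, followed by Hspa5 (147 ± 29.9), Herpud1 (142 ± 29.2) and Hsp90b1 (134 ± 13.3), which did not differ beyond their SD. Pdia4 stood at 86.3 ± 11.2 and Dnajb9 at 26.5 ± 6.24. Manf, Sdf2l1, Creld2 and Hyou1 lay within 15.6 to 18.8 CPM per kb, also closer than their SD. In chow vehicle mice the order changed at the top, where Herpud1 (321 ± 64.5 CPM per kb) passed Calr (282 ± 44.97). Reads on the exons of Manf can be shared with Dcaf1 and Rbm15b, which overlap 146 and 14 bases of them, and 15.7% of the exon bases of Hsp90b1 are shared with 3 genes outside the table; whether counting used strand is not given in the sources used here.

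**Figure D1:**
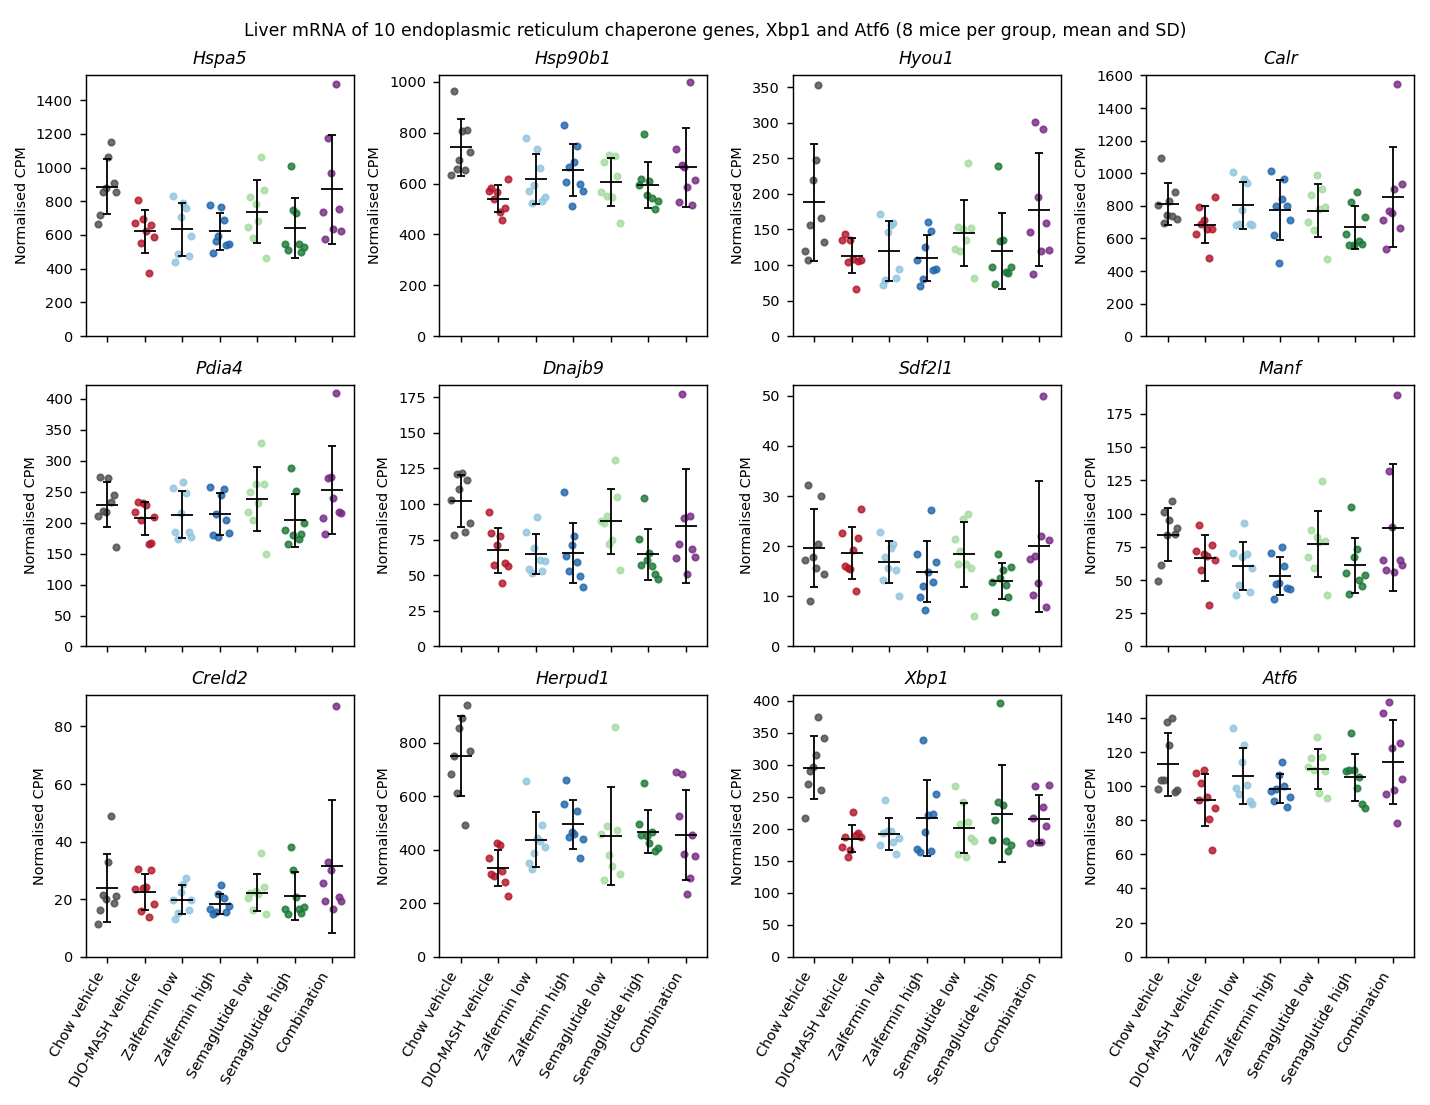
Normalised CPM of the 10 members, Xbp1 and Atf6 in each mouse (points) with the mean and SD of the group (black), 8 mice per group and a separate vertical axis from 0 for each gene. Herpud1 and Hsp90b1 of chow vehicle mice lie above all DIO-MASH vehicle mice, a split whose share over all genes was not counted. Combination mouse 6 is the highest point of 7 members.

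The comparison of chow vehicle with DIO-MASH vehicle mice addressed how the diet and disease state moved the chaperones. It called 5 of the 10 members at an adjusted p under 0.05 (edgeR's quasi-likelihood test, two-sided, Benjamini-Hochberg adjustment over 14105 genes), all 5 higher in chow. Of all genes tested, 55.4% were called, 26.5% higher and 28.9% lower in chow, so that 5 of 10 is near the share of genes called in either direction. The median log2 fold change of the members was 0.40, against -0.0072 over all genes.

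Herpud1 encodes an ER membrane protein that organises the degradation machinery for misfolded proteins. It was 682, 751, 610, 855, 893, 494, 942 and 767 CPM in chow mice 1 to 8 and 369, 310, 303, 423, 418, 318, 280 and 227 CPM in DIO-MASH vehicle mice 1 to 8. All 8 chow mice lay above all 8 DIO-MASH vehicle mice, and the share of all genes split this way was not counted. The log2 fold change was 1.18 ± 0.18 (SE) with an adjusted p of 4.15e-07 in edgeR, the largest of the members.

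Among the HSP70 and HSP90 class chaperones, Hspa5 encodes BiP, the main ER HSP70 and the partner that holds the stress sensors inactive. Its CPM in chow ran from 667 to 1151 with a median of 866, and in DIO-MASH vehicle from 374 to 808 with a median of 641. Of the chow mice 6 exceeded every DIO-MASH vehicle mouse. The log2 fold change was 0.51 ± 0.17 and the adjusted p 0.0106 (edgeR). Hsp90b1, the ER HSP90 (GRP94), ran from 633 to 963 CPM (median 707) in chow and from 456 to 617 (median 554) in DIO-MASH vehicle. Again the groups did not overlap, with no share of all genes counted for this. The log2 fold change of Hsp90b1 was 0.46 ± 0.11 with an edgeR adjusted p of 6.19e-04.

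Hyou1, an HSP110-type protein that recharges BiP with ATP, spanned 107 to 353 CPM (median 161) in chow and 65.9 to 144 (median 107) in DIO-MASH vehicle. Its groups overlapped, with 5 chow mice above all DIO-MASH vehicle mice, for a log2 fold change of 0.73 ± 0.25 (edgeR adjusted p 0.0101). Without chow mouse 6, the highest, the adjusted p was 0.0559. Dnajb9, a J-domain co-chaperone of BiP, spanned 78.3 to 122 CPM (median 107) in chow and 44.9 to 94.1 (median 64.9) in DIO-MASH vehicle. It differed by 0.60 ± 0.19 on the log2 scale (edgeR adjusted p 0.00693), and 5 chow mice lay above every DIO-MASH vehicle mouse.

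The other 5 members were not called. Calr, calreticulin, a lectin chaperone for glycoproteins that also stores calcium, averaged 813 ± 130 CPM in chow and 685 ± 112 in DIO-MASH vehicle. Pdia4, a protein disulphide isomerase, averaged 229 ± 36.4 and 207 ± 26.97 CPM. For these genes the fold changes were 0.25 ± 0.15 and 0.15 ± 0.14 on the log2 scale. Manf and Creld2, small luminal proteins that can be secreted, differed by 0.34 ± 0.23 and 0.08 ± 0.26, and Sdf2l1, which works with J-domain proteins on BiP clients, by 0.08 ± 0.27. The 95% interval of Sdf2l1 ran from -0.44 to 0.61, wide enough to hold the change of Hspa5.

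Xbp1 and Atf6 moved the same way. Xbp1 spanned 216 to 375 CPM in chow (median 293) and 157 to 226 in DIO-MASH vehicle (median 187), with 7 chow mice above every DIO-MASH vehicle mouse. Its log2 fold change was 0.68 ± 0.14 (edgeR adjusted p 6.50e-05), larger than that of any member but Herpud1 and Hyou1. Atf6 differed less, by 0.30 ± 0.11 (adjusted p 0.0179), with medians of 103 CPM in chow and 92.5 in DIO-MASH vehicle. Its call was lost without chow mouse 6 (adjusted p 0.0549) or DIO-MASH vehicle mouse 7 (0.0528).

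The scaling decided most of these calls. With total reads in place of TMM, Herpud1 remained higher in chow (log2 fold change 0.71 ± 0.17, edgeR adjusted p 3.08e-04), Hspa5, Hyou1 and Dnajb9 fell to 0.06, 0.30 and 0.14 and lost their calls, and Hsp90b1 stood at -0.0093. Pdia4 was then called lower in chow at -0.31 ± 0.12, and Calr, Manf, Sdf2l1 and Creld2 turned to -0.22, -0.10, -0.40 and -0.36. Xbp1 (0.23) was not called and Atf6 (-0.15) changed sign. Summed over the 10 members, the unscaled share of all reads was 0.314% ± 0.0364 in chow and 0.302% ± 0.0390 in DIO-MASH vehicle mice. Higher than the bulk of liver genes therefore holds for 5 members, and a larger share of all mRNA holds for Herpud1.

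**Figure D2:**
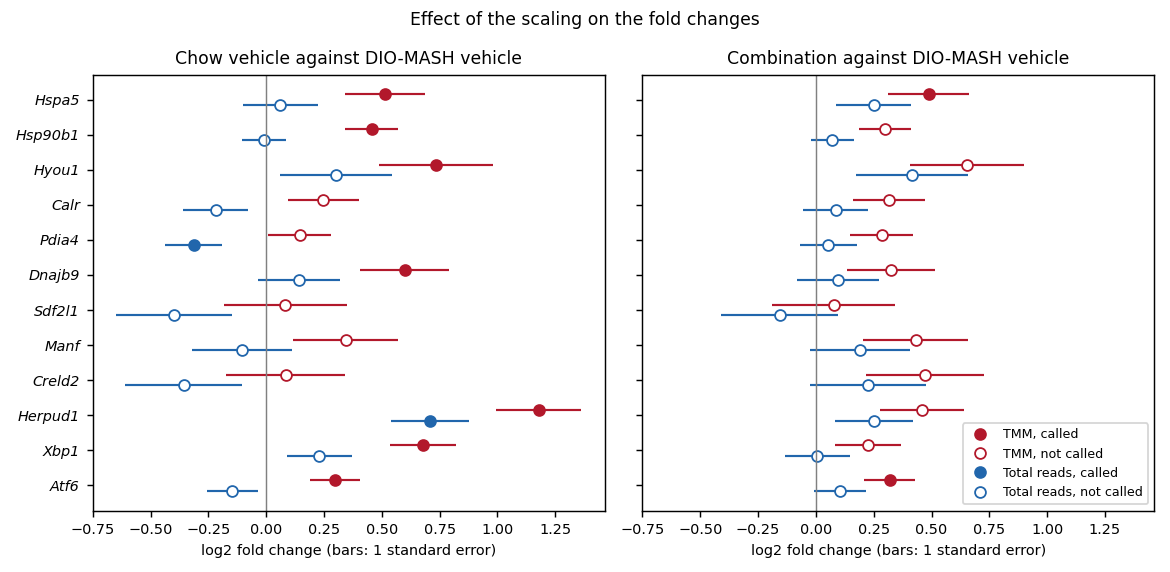
Log2 fold change (± SE) of each gene against DIO-MASH vehicle under TMM scaling (red) and total-read scaling (blue), for chow vehicle (left) and the combination (right), with filled points where the adjusted p was under 0.05. All blue points lie left of the red ones, and Herpud1 is the one member called higher in chow under both.

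Cell type markers moved alongside. Of 8 hepatocyte markers 8 were higher in chow, with summed CPM of 144760 to 234523 in chow and 59889 to 81637 in DIO-MASH vehicle mice. Stellate cell markers (7 of 8 lower in chow) summed to 132 to 246 CPM in chow and 951 to 1712 in DIO-MASH vehicle, and monocyte-derived macrophage markers (8 of 8 lower) to 79.1 to 218 and 598 to 1086. In bulk liver, fewer cells of a type and less RNA per cell cannot be told apart, and the part of cell composition in the chaperone differences was not tested. Plasma cells are rich in ER chaperones, and of 8 plasma and B cell markers kept 5 were lower in chow and 0 higher, with sums of 4.32 to 323 CPM (median 7.98) in chow and 6.48 to 195 (median 36.7) in DIO-MASH vehicle. The labels' sample numbers fall into 4 ranges, each with 1 to 3 mice of either group. The chow minus DIO-MASH vehicle difference of mean log2 CPM in those ranges was 1.08, 0.70, 1.27 and 1.91 for Herpud1 and 0.44, 0.30, 0.57 and 0.31 for Hsp90b1. For Hspa5 it was -0.09, 0.46, 1.04 and 0.59 and for Hyou1 -0.30, 0.45, 1.68 and 0.47, so the direction of these 2 did not hold in 1 range. With the range as a covariate the count of called members was still 5.

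Against DIO-MASH vehicle, the treatments moved few members past the threshold. High-dose zalfermin called 1 of 10, beside 17.2% of all genes, and the combination called 1 of 10, beside 20.9% of all genes (10% higher, 10.9% lower), so neither share was above the background. Low-dose zalfermin called 0 of 10 (0.468% of all genes), low-dose semaglutide 0 of 10 (0% of all genes) and high-dose semaglutide 0 of 10 (2.43% of all genes). At an unadjusted p under 0.05 each of these 3 groups had 1 member, which was Herpud1 every time, and DESeq2's Wald test called 0 in each. Of all genes, 11.3%, 8.66% and 16.9% had an unadjusted p under 0.05 there, so 1 of 10 is near the background. The same DIO-MASH vehicle mice served in each of these comparisons.

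Herpud1 had a positive log2 fold change in all 5 treated groups. High-dose zalfermin raised it to 569, 661, 448, 467, 459, 544, 371 and 440 CPM in mice 1 to 8, and 7 of the 8 lay above all DIO-MASH vehicle mice. The log2 fold change was 0.58 ± 0.18 (edgeR adjusted p 0.0205). This call was lost, with adjusted p-values of 0.0531 and 0.0541, without DIO-MASH vehicle mouse 8 or zalfermin high mouse 2, and with total reads (0.39, adjusted p 0.0857). Among the others, low-dose zalfermin differed from DIO-MASH vehicle by 0.40 ± 0.18 (edgeR adjusted p 0.382) and the low dose of semaglutide by 0.44 ± 0.18 (0.484). Without semaglutide low mouse 6 the latter was 0.24 ± 0.17 (adjusted p 0.999), and in that group Hspa5 went from 0.25 to 0.16 and Hyou1 from 0.36 to 0.21, called neither way. Leaving out mouse 8 of that group instead gave Herpud1 its lowest edgeR adjusted p there, 0.310, also without a call. High-dose semaglutide gave 0.50 ± 0.18 (0.137) and the combination 0.46 ± 0.18 (0.0627). Low-dose semaglutide mouse 6 held the highest Herpud1 of any treated mouse at 860 CPM.

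The combination raised Hspa5, at 739, 574, 1174, 970, 636, 1495, 752 and 625.4 CPM in mice 1 to 8. Of these, 3 mice exceeded all DIO-MASH vehicle mice and the other 5 lay inside their range. The log2 fold change was 0.49 ± 0.17 with an edgeR adjusted p of 0.0374. It was 0.33 without combination mouse 6 (adjusted p 0.159) and 0.21 without mice 3 and 6 (adjusted p 0.449), and with total reads it was 0.25 (adjusted p 0.235). Leaving out DIO-MASH vehicle mouse 6, the lowest of its group, gave 0.42 (adjusted p 0.0894). The call was also lost without DIO-MASH vehicle mouse 3 or 8 or combination mouse 3 or 4. Of 56 fits, each without 1 mouse, 50 called Hspa5.

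The other members pointed upward in the combination without a call. Hyou1 ran from 87.4 to 300.4 CPM (median 153), for 0.65 ± 0.25 on the log2 scale (edgeR adjusted p 0.0508), and Hsp90b1 from 515 to 1001 CPM (median 640), for 0.30 ± 0.11 (adjusted p 0.0521). Of the 56 fits without 1 mouse, 30 called Hyou1 and 36 called Hsp90b1. Creld2 ranged from 16.5 to 87.0 CPM around a median of 23.1, so a single mouse set its mean of 31.4 ± 23.2. Without mice 3 and 6 the log2 fold changes of Creld2 and Manf were -0.035 and -0.0084, down from 0.47 and 0.43. All 10 log2 fold changes were positive, with a median of 0.38 (all genes -0.026), although with total reads Sdf2l1 turned from 0.08 to -0.16, and 6 had an unadjusted p under 0.05, as did 34.3% of all genes. Without low-dose semaglutide mouse 6 in the shared fit, the combination called 4 members (Hspa5, Hsp90b1, Hyou1 and Herpud1), and without both combination mice 3 and 6 it called 0.

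In the combination Atf6 was raised by 0.32 ± 0.11 (edgeR adjusted p 0.0290; 0.10 and adjusted p 0.494 with total reads; not called either without DIO-MASH vehicle mouse 6 or 7 or combination mouse 1 or 3) and Xbp1 by 0.22 ± 0.14 without passing the test (adjusted p 0.259). No other treated group changed either gene at an adjusted p under 0.05. Hepatocyte markers (7 of 8 higher) summed to 85194 to 135319 CPM in the combination, and stellate markers (6 of 8 lower) to 319 to 775 CPM. Their part in the chaperone values was not tested.

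**Figure D3:**
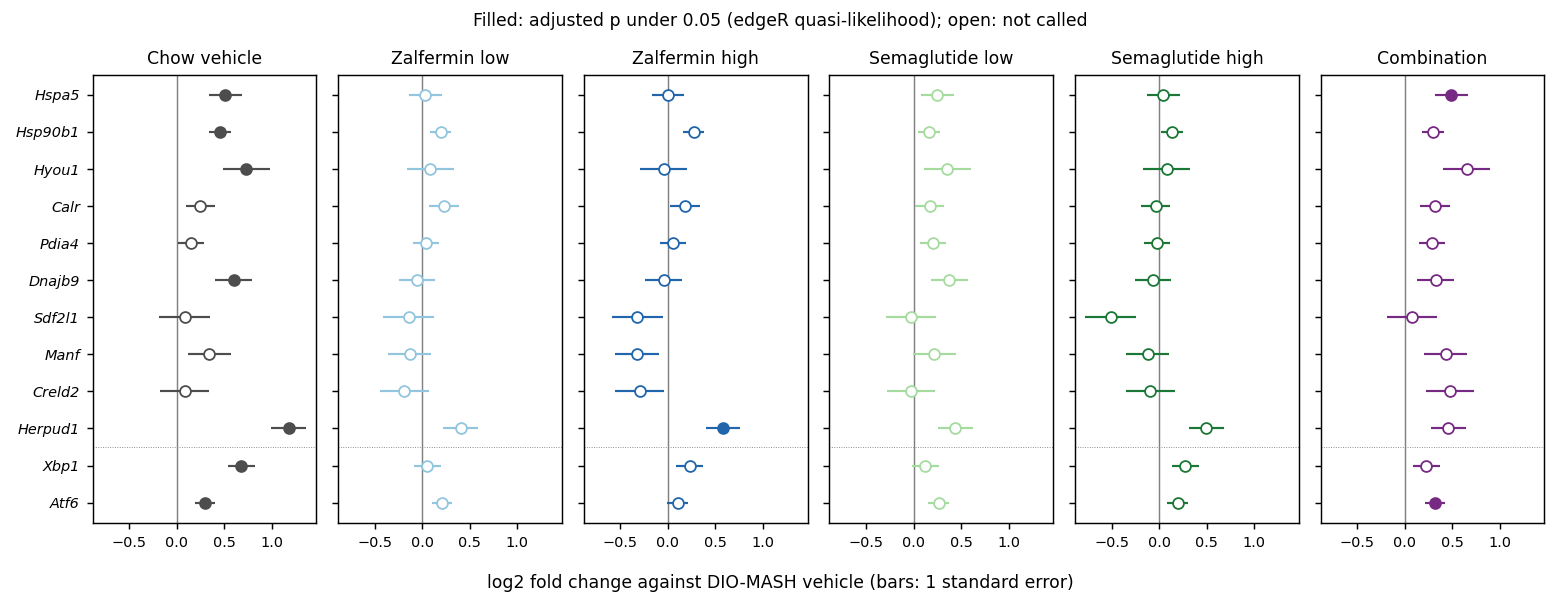
Log2 fold change (± SE) of the 10 members, Xbp1 and Atf6 against DIO-MASH vehicle in 6 panels of 8 mice against 8, filled where the edgeR adjusted p was under 0.05. Herpud1 is positive in every panel, from 0.40 to 1.18, and beyond the chow panel the filled points of members are Herpud1 under high-dose zalfermin and Hspa5 under the combination.

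Set against chow instead, members called lower numbered 4 of 10 in low-dose zalfermin (22.5% of all genes lower), 5 in high-dose zalfermin (17.6%), 2 in low-dose semaglutide (21.3%), 5 in high-dose semaglutide (18.6%) and 1 in the combination (15.0%). No member was called higher. These 5 comparisons share the chow mice. Herpud1 was lower in all 5, by log2 fold changes from -0.60 (high-dose zalfermin) to -0.78 (low-dose zalfermin). Dnajb9 was lower in both zalfermin groups and high-dose semaglutide (-0.65, -0.65 and -0.66), as were Hspa5 and Hyou1, while in the combination Hspa5 stood at -0.03, Hyou1 at -0.08 and Dnajb9 at -0.28, none called. Xbp1 was also lower than chow in all 5 treated groups, by -0.40 to -0.63. Without semaglutide high mouse 7 the count in high-dose semaglutide was 2 and without mouse 3 it was 7, and with total reads, which moved the median of all genes up by 0.24 to 0.36 against chow, 0 members were lower in either high-dose group. Under that scaling Herpud1 was still called in the other 3 groups, beside 1 member called higher in each (Calr in low-dose zalfermin, Pdia4 in low-dose semaglutide and the combination). Of all genes called with total reads, 6950 of 7705 were higher in low-dose zalfermin, 7375 of 8048 in low-dose semaglutide and 4846 of 5453 in the combination. In the high-dose groups 5462 of 6020 (zalfermin) and 6841 of 7410 (semaglutide) were higher.

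Direct comparisons between treated groups asked whether the combination differed from its parts and whether dose mattered. The combination called 0 of 10 members against low-dose zalfermin (6.62% of all genes), low-dose semaglutide (4.21%), high-dose zalfermin (0.503%) and high-dose semaglutide (1.89%). High against low dose called 0 of 10 for zalfermin (1.84%) and for semaglutide (0%), and high-dose zalfermin against high-dose semaglutide called 0 of 10 (0.447%). At an unadjusted p under 0.05, edgeR had 4, 0, 4 and 8 members for the 4 comparisons of the combination, 0 and 1 for the dose comparisons and 0 for the last, and DESeq2 called 0 in each. The shares of all genes at an unadjusted p under 0.05 were 21.2%, 17.6%, 10.9% and 14.4% for the combination, 13.5% and 3.89% for the dose comparisons and 9.65% for the last. The largest of these differences was Creld2, 0.77 on the log2 scale higher in the combination than in high-dose zalfermin. The interaction of both low doses called 0 of 10 (0.0142% of all genes; 0 at an unadjusted p under 0.05, beside 6.75% of all genes; 0 in DESeq2). Its estimate for Hspa5 was 0.21 with a 95% interval of -0.27 to 0.69, which leaves room for changes as large as that of the combination itself.

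Spread between mice of a group was a feature of these genes. The within-group SD of log2 CPM was 0.51 for Hyou1, 0.56 for Sdf2l1, 0.47 for Manf and 0.50 for Creld2, at percentiles 94.7, 95.3, 95.2 and 94.6 among genes of like level, whereas Hsp90b1 (0.22) sat at percentile 40.5. Group membership accounted for 47.02% of the variance of Herpud1 but for 10.9% of that of Sdf2l1 and 11.5% of that of Creld2, beside a median of 25.2% over all genes kept. This share was not corrected for the number of groups, so it exceeds 0 also where groups do not differ. No relation with depth passed the threshold. Pearson's r of a gene's deviation with log2 reads lay between -0.26 and 0.14 over the 12 genes, the lowest adjusted permutation p being 0.553.

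**Figure D4:**
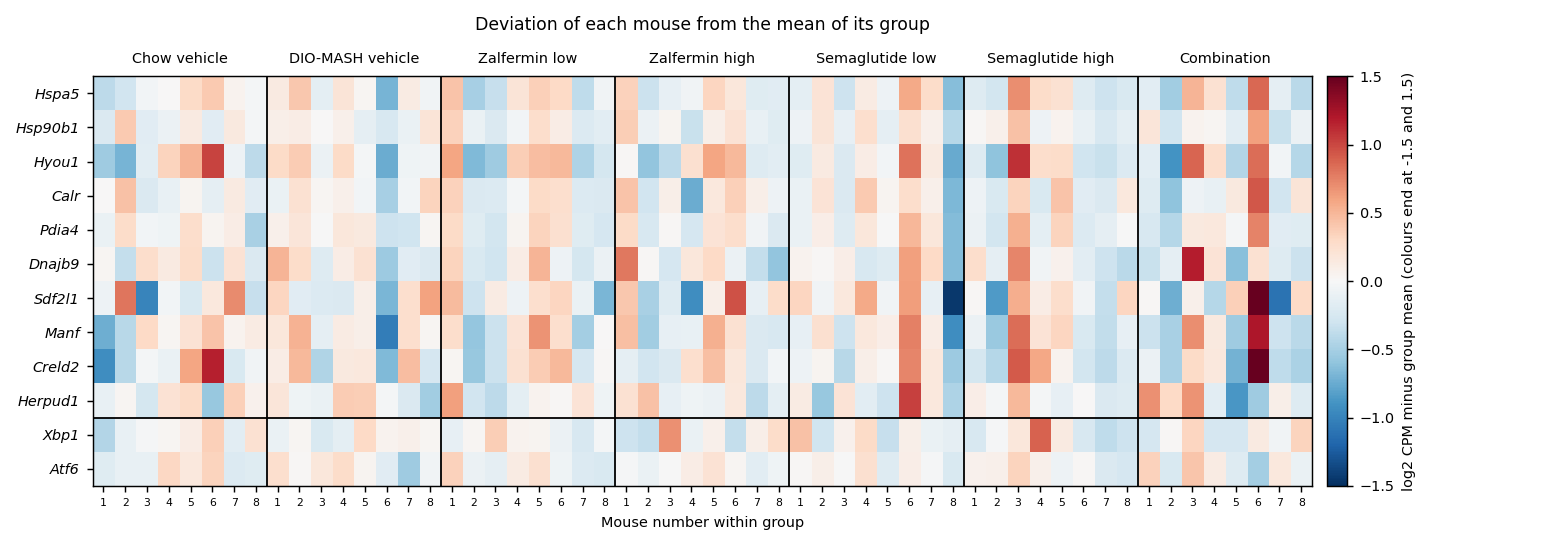
Deviation of log2 CPM from the group mean for each of 56 mice (columns, 8 per group) and 12 genes (rows), red above and blue below the mean. Columns tend to be of 1 colour from Hspa5 to Creld2, as in DIO-MASH vehicle mouse 6 and combination mouse 6, while Herpud1 and Xbp1 often differ from the column.

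Single mice stood out across the members. In DIO-MASH vehicle mouse 6 and semaglutide low mouse 8, 0 of 10 members were above the group mean, with median deviations of -0.60 and -0.65 on the log2 scale. In semaglutide low mouse 6 and semaglutide high mouse 3, 10 of 10 were above it, with medians of 0.62 in both. In combination mouse 6, 9 of 10 were above it with a median of 0.85, and the exception was Herpud1 at -0.53.

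Pairs of members were correlated over 56 mice after group means were removed (log2 CPM, 100000 permutations within groups, adjusted over 45 pairs). Of 45 pairs, 35 had an adjusted p under 0.05 for Pearson's r and 36 for Spearman's rho. The share of pairs called among other genes was not computed, so these counts have no background beside them. Hspa5 and Manf were the closest pair with r = 0.96 and rho = 0.95, followed by Hspa5 and Hyou1 (r = 0.93, rho = 0.94). Permutation p-values of both pairs were 1e-05, the smallest 100000 permutations can give, and 2.14e-05 after adjustment. Calr sided with Pdia4 (r = 0.84), Hsp90b1 (0.83) and Sdf2l1 (0.82), and less with Dnajb9 (0.28) or Creld2 (0.42).

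Herpud1 was the exception. The 36 pairs without it had a median r of 0.67, with 34 called, and the 9 pairs with it a median r of 0.20, with 1 called. That pair was Dnajb9 and Herpud1 (r = 0.57, rho = 0.53, adjusted permutation p 9e-05 for r). Without the 2 mice farthest from the median of the first gene, the medians were 0.59 and 0.33 and the calls 34 and 6. Without combination mice 3 and 6 they were 0.61 and 0.26, with 32 and 3 called, and with sample-number ranges removed as well 34 and 1 were called.

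Xbp1 was weakly related to the members within groups. Of its 10 relations, with p-values adjusted over the 20 relations of Xbp1 and Atf6, 1 was called, with Creld2 (r = 0.34, rho = 0.34, adjusted permutation p 0.0478 for r). The r of the others ran from -0.02 to 0.23, the last with Manf. With Hsp90b1, Calr and Pdia4 it was under 0.01. Without the 2 mice farthest in Xbp1, the median r was 0.12 (from 0.07) and 1 relation was called.

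Atf6 was more closely related to the members than Xbp1 was, with no share of such calls over other genes computed. Its r was called with Hyou1 (r = 0.54, rho = 0.63, adjusted p 0.0028 for r), Dnajb9 (0.46, rho 0.46, 0.0112), Herpud1 (0.45, rho 0.41, 0.0130) and Hspa5 (0.39, rho 0.53, 0.0430), all by permutation. Spearman's rho was called for 8 of 10 members, the exceptions being Calr and Sdf2l1. Without the 2 mice farthest in Atf6 the median r was 0.52 in place of 0.29 and 8 were called, and without combination mice 3 and 6 it was 0.48, also with 8 called. With total reads 1 relation of Atf6 and none of Xbp1 was called by r. Combination mouse 6, the highest for most members, was the lowest of its group for Atf6 at 78.5 CPM.

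**Figure D5:**
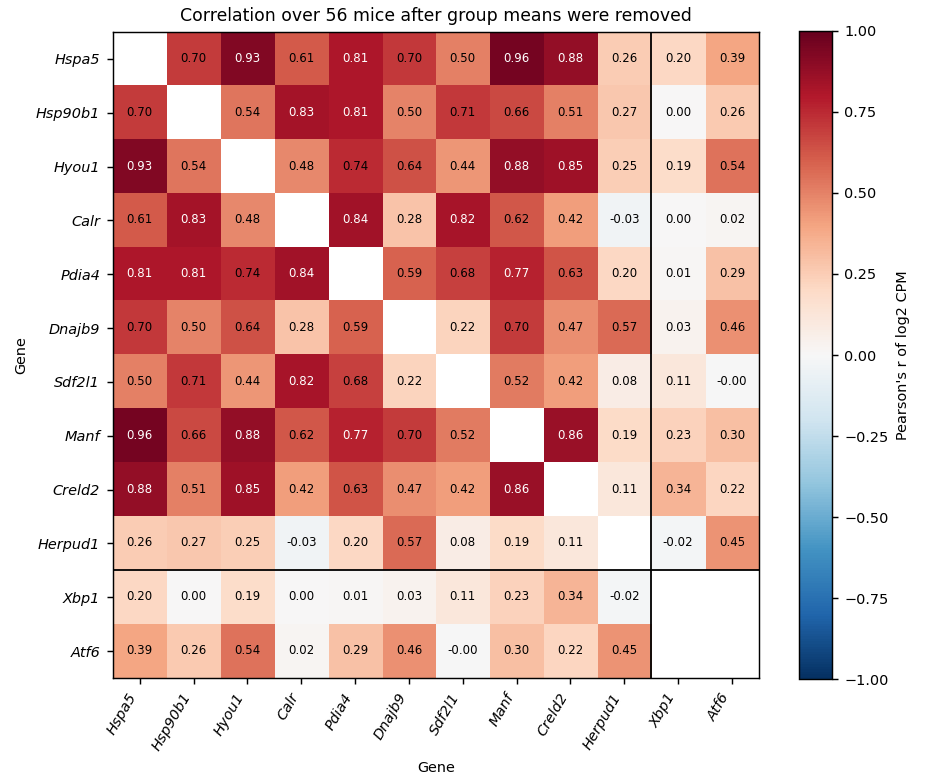
Pearson's r of log2 CPM over 56 mice for each pair of the 10 members and for each member with Xbp1 and Atf6, after group means were removed. Values are high among the first 9 members, with a maximum of 0.96, and low in the rows of Herpud1 and Xbp1.

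Of 9302 other genes with a mean of 5 CPM or more, those with the highest mean r with the members over the 56 mice were Dnajb11 (0.67), Sec23b (0.66), Aars (0.63), Ero1lb (0.63), Lman1 (0.62), Nme6 (0.62), Ubxn4 (0.62), Slc31a1 (0.60), Elac2 (0.59) and Yipf5 (0.59), as a description without a test. Dnajb11 is another ER J-domain co-chaperone, Ero1lb an ER oxidase that keeps disulphide bonds forming, and Sec23b and Lman1 belong to transport from the ER to the Golgi. Atf6 ranked 1253 (0.29) and Xbp1 3658 (0.11). For comparison, the mean r of a member with the other 9 ran from 0.21 (Herpud1) to 0.70 (Hspa5).

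Other ER gene lists were described by their counts. Under TMM scaling, 26.5% of all genes were higher and 28.9% lower in chow than in DIO-MASH vehicle. In the combination 10% were higher and 10.9% lower. With total reads, 9310 of 14105 genes were called in chow, 773 of them higher. In the combination 4488 were called, 444 of them higher. The median log2 fold change of all genes was then -0.47 in chow and -0.25 in the combination. Lower calls with total reads in the lists therefore stand beside a majority of lower calls over all genes. The direction of several of these lists depended on the scaling, with total reads an alternative chosen after seeing the data. Of 27 further ER folding factors, 15 were higher and 2 lower in chow (median log2 fold change 0.29), but 3 higher and 10 lower with total reads (median -0.16). Pdia5 (1.11 ± 0.13), Calr3 (0.98 ± 0.18), the BiP nucleotide exchange factor Sil1 (0.68 ± 0.09) and Ero1lb (0.65 ± 0.16) differed most, all past the edgeR threshold, and all but Ero1lb were called higher under both scalings. In the combination 10 were higher and 2 lower, or 3 and 5 with total reads, with Calr3 (0.74), Pdia5 (0.60) and the glucosidase subunit Ganab (0.45) raised and the prolyl isomerase Fkbp11 (-0.70) lowered, these 4 under both scalings. Herpud1's own pathway, ER-associated degradation, had 11 of 18 genes higher and 1 lower in chow, but 2 higher and 10 lower with total reads. Among those higher were the lectin Os9 (0.76) and the ubiquitin ligase Syvn1 (0.46) with its partner Sel1l (0.36), of which Os9 was also called higher with total reads. In the combination 7 of the 18 were higher and 0 lower (2 and 2 with total reads), among them Edem1 (0.45), Os9 (0.43) and Derl2 (0.36).

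The list of 25 translocon, signal peptidase and early transport genes had 8 higher and 1 lower in chow and 4 higher and 1 lower in the combination. With total reads 0 were higher in either comparison, with 17 lower in chow and 6 in the combination. The gene lowered in both, also with total reads, was Kdelr3, a receptor that returns chaperones to the ER (-2.86 in chow, -1.58 in the combination), and Spcs2 of the signal peptidase was higher in both (0.44 and 0.51; -0.03 and 0.28 with total reads, neither called). Among the 11 sensors and transcription factors, Atf4 (0.74), Xbp1, Ern1 (0.54), Creb3l3 (0.50) and Atf6 were higher and Ddit3 (-0.59) lower in chow, but with total reads 0 of the 11 were higher and 6 lower. Under TMM scaling Eif2ak3, Atf6b, Mbtps1, Mbtps2 and Creb3l2 were not called in chow. With total reads they were called lower, by -0.61, -0.67, -0.35, -0.56 and -0.64, as was Ddit3. In the combination Atf4 (0.61), Ern1 (0.47) and Atf6 were raised, of which Atf4 was also called with total reads. High-dose zalfermin lowered Eif2ak3, which encodes PERK (-0.51 ± 0.15, edgeR adjusted p 0.0150), and Mbtps2 (-0.32), 1 of the proteases that cleave ATF6.

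Of 15 targets of the PERK and ATF4 arm, 8 were lower and 4 higher in chow than in DIO-MASH vehicle (median -0.74), and 10 and 1 with total reads. In the combination 5 were lower, 1 was higher and 9 were not called (median -0.36), and 7 were lower and 0 higher with total reads. The cystine transporter Slc7a11 was lower in chow by -3.89 and in the combination by -1.42, and Psat1 of serine synthesis by -2.93 and -1.34. Asns, asparagine synthetase, was higher in chow by 2.61 yet lower in the combination by -1.41, with 0.615 to 14.8 CPM in chow, 0.252 to 2.14 in DIO-MASH vehicle and 0.186 to 0.621 in the combination, where the lowest count was 2 reads. Among 18 cytosolic and mitochondrial chaperones 6 were higher and 3 lower in chow (0 and 11 with total reads) and 2 higher and 2 lower in the combination (0 and 5), where Hspa1b (-1.33) and Hspa1a (-1.19), a pair of near-identical genes whose reads cannot be split with certainty, were lowered.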

How the data were processed

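The authors deposited raw read counts per gene for 56 mouse livers. Per the study's methods, mRNA was sequenced from stranded libraries and aligned with STAR to GRCm38; the submitters' processing notes name Salmon 1.9.0 and Trim Galore 0.6.4. The counting program is not given in the sources used here. The members, gene lists and markers were chosen with earlier results of these data known.

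Genes reaching 5 reads in at least 3 livers entered the fit. Counts were modelled in edgeR 4.0.16 (R 4.3.3), all 7 groups in 1 quasi-likelihood model with TMM factors, without covariates, and p-values were adjusted over 14105 genes with a threshold of 0.05. CPM used TMM-scaled library sizes, log2 CPM a prior count of 2. Correlations used residuals from group means and 100000 permutations within groups, fewer where the 2 farthest mice were left out. The p-values assume that each mouse is independent. Steps were tested on simulated counts.

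Named genes were the 10 members, Xbp1, Atf6, every gene of the sensor list, up to 4 per other list by fold change among those called in chow or the combination, and the 10 genes most like the members; 1 gene that this rule names is not reported here. Alternatives were DESeq2 1.42.0, its size factors, filters of 1 read in total or 10 reads in 8 mice, sample-number ranges, fits of only the compared groups, omission of every mouse in turn and, chosen after seeing the data, total reads (for the gene lists too) and the omission of combination mice 3 and 6. Columns of mice in a group were not copies of each other, with a chi-square per degree of freedom of 7.57 or more.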

Additional observations from a re-analysis of the deposited data

Results flagged for a closer look

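In 84 combinations of gene and group, the highest or lowest mouse was compared with its nearest neighbour by Dixon's ratio, for which 8 mice have a critical value of 0.526. For independent, normally distributed values chance flags about 1 group in 20. Here CPM were not log-transformed and the members were correlated, so that rate is only a rough guide. Of the 84, 14 were past it, and they came from 6 mice, each at the high end of its group.

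Combination mouse 6 gave 5 of them, with Hsp90b1 at 1001 CPM, Calr at 1550 CPM, Pdia4 at 410 CPM, Sdf2l1 at 50.02 CPM and Creld2 at 87.0 CPM, where the next mice were at 736, 933, 273, 22.04 and 32.998 CPM. Combination mouse 3 stood apart for Dnajb9 at 177 CPM. Semaglutide low mouse 6 stood apart for Hyou1 at 244 CPM, Creld2 at 35.9 CPM and Herpud1 at 860 CPM. Semaglutide high mouse 3 stood apart for Hsp90b1 at 796 CPM, Hyou1 at 239 CPM and Herpud1 at 650.0 CPM. For Xbp1, zalfermin low mouse 3 was at 245 CPM and semaglutide high mouse 4 at 397 CPM, and neither mouse was past the value for a member.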

How the results depend on the processing

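With total reads in place of TMM, counts of called members went from 5 to 2 in chow against DIO-MASH vehicle, from 1 to 0 in high-dose zalfermin and from 1 to 0 in the combination. Against chow the counts of members went from 4 to 2 in low-dose zalfermin, from 5 to 0 in high-dose zalfermin and in high-dose semaglutide, and from 1 to 2 in the combination. Of all genes, total reads called 7705 in low-dose zalfermin, 6020 in high-dose zalfermin, 7410 in high-dose semaglutide and 5453 in the combination. Under that scaling the log2 fold change turned from positive to -0.0093 for Hsp90b1, -0.22 for Calr, -0.31 for Pdia4, -0.10 for Manf and -0.15 for Atf6 in chow, where Sdf2l1 (-0.40) and Creld2 (-0.36), within 1 SE of 0 under TMM, turned as well, to -0.022 for Calr in high-dose zalfermin and to -0.00020 for Hsp90b1 in high-dose semaglutide. Without combination mice 3 and 6 that group called 0 against DIO-MASH vehicle and 3 against chow, and Manf (-0.0084) and Creld2 (-0.035) turned negative. The share of calls that were higher in chow moved from 47.9% of all called genes to 8.30% with total reads, and in the combination from 47.99% to 9.89%.

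DESeq2's Wald test called 3 members in the combination and the number ranges as a covariate 2. Fitting only the groups compared called 2 in high-dose zalfermin, 1 in high-dose semaglutide, and 1 in low-dose semaglutide against chow. Leaving out each of 56 mice gave 0 to 1 members in high-dose zalfermin, 0 to 4 in the combination and, against chow, 3 to 6 in low-dose zalfermin, 1 to 2 in low-dose semaglutide, 2 to 7 in high-dose semaglutide and 1 to 2 in the combination. Of the relations of Xbp1 and Atf6 with the members 5 were called, and 9 without the 2 farthest mice, 9 without combination mice 3 and 6 and 1 with total reads. The causes were not tested. For single genes, 1123 of 1152 values without 1 mouse and 549 of 576 others kept their direction and side of the threshold, changes of sign under 1 SE from 0 aside. No paired analysis was possible because the labels carry no replicate numbers shared between groups.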
